A study of Mus musculus with 6 samples.

Results

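The genes described are 7 genes for channels that open in response to stretch, pressure or flow, or that take part in sensing them: Piezo1, Piezo2, Trpv2, Trpv4, Trpc6, Pkd1 and Pkd2. They were chosen by name from the 24063 gene symbols of the count tables, and all 7 were found there and passed the filter on low counts, which kept 16598 symbols. Their RNA was measured in endothelial cells (ECs) isolated from mouse lungs with magnetic beads that carry an antibody to CD31, a surface protein of ECs. One group of 3 libraries came from sham-operated C57BL6 mice, and the other group of 3 came from C57BL6 mice 7 days after left unilateral pneumonectomy (PNX), the removal of a lung after which the remaining lung grows. Both groups were wild type and male, each library was pooled from 2 mice, and the labels give an age of 8 weeks, whereas the methods give an older age. PNX was compared with sham, and each gene is given as CPM, its counts per 1000000 counts of the library after TMM scaling of the library sizes.

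By the labels, the first 2 replicates in each group are re-used and so belong to an older record, the earlier deposit, while replicate 3 in each group has no such mark and forms the later deposit. The counts of replicates 1 and 2 of a group lay only slightly above sampling noise. The chi-square per degree of freedom was 1.75 in sham and 1.57 in PNX, against 67.9 to 86.4 for pairs with replicate 3. Each such pair was summed and taken as 1 sample, so n = 2 in sham and n = 2 in PNX. Total counts were 65763553 to 81282871 per library in the earlier deposit and 29526989 to 33374216 in the later one. Of 11 endothelial marker genes all 11 were present, with a summed level of 9423 to 11800 CPM in sham and 8705 to 9805 CPM in PNX, so the defining markers of the labelled cell type were there. Of the 11, 4 (Cdh5, Kdr, Tek and Vwf) were lower in all PNX libraries, beside 18.0% of all genes tested. In 1 (Emcn) all PNX libraries were higher, beside 18.6% of all genes tested. The isolates also held RNA of other cell types, with summed levels of 2460 to 4488 CPM for 8 macrophage genes and 419 to 585 CPM for 8 smooth muscle and pericyte genes. Most of the macrophage sum was Lyz2, at 1997 to 3511 CPM. The sum of 8 alveolar epithelial genes was 6580 to 8993 CPM in sham and 2244 to 6066 CPM in PNX. That of 4 airway epithelial genes was 2435 to 4220 CPM in sham and 1164 to 1201 CPM in PNX. For 5 lymphocyte genes it was 46.4 to 61.1 CPM in sham and 25.5 to 32.4 CPM in PNX. The sum of 7 fibroblast genes was 3136 to 3190 CPM in sham and 4455 to 4606 CPM in PNX. Most of the sham sum was Npnt, at 2177 to 2350 CPM. In all PNX libraries 4 of the 7 (Col1a1, Col1a2, Dcn and Lum) were higher, beside 18.6% of all genes tested. The other 3 (Pdgfra, Tcf21 and Npnt) were lowest in PNX replicate 3. The sum of 4 mesothelial genes was 74.8 to 267 CPM in sham and 219 to 695 CPM in PNX, and that of 5 proliferation genes 39.1 to 74.2 CPM in sham and 325 to 511 CPM in PNX, and both were highest in PNX replicate 3. In such bulk RNA, fewer cells of a type and less RNA per cell cannot be told apart.

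PIEZO1 and PIEZO2 are large cation channels that open directly when the membrane is stretched. In blood vessels, PIEZO1 in ECs lets calcium in when blood flow exerts shear stress on the cell surface, and this is needed for vessel formation in the embryo. The TRP channels TRPV2, TRPV4 and TRPC6 also pass calcium and respond to swelling, stretch or lipid messengers; TRPV4 in lung ECs is known for raising permeability when capillary pressure rises. Polycystin-1 and polycystin-2, the products of Pkd1 and Pkd2, form a receptor and channel complex found at the primary cilium and the endoplasmic reticulum, and mutations of either gene cause polycystic kidney disease.

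On the mouse genome build GRCm38, which is mm10, the GENCODE annotation places all 7 as protein-coding genes. Piezo1 lies on chromosome 8 from 122481698 to 122551329 on the minus strand. Trpv2 lies on chromosome 11 from 62574486 to 62600515, and Trpc6 on chromosome 9 from 8544142 to 8680741, both on the plus strand. Trpv4 lies on chromosome 5 from 114622152 to 114658421 on the minus strand. Pkd2 lies on the same chromosome, from 104459450 to 104505819 on the plus strand. Pkd1 lies on chromosome 17 from 24549834 to 24596508 on the plus strand. Piezo1 shares 2441 of its 9935 exon bases with Ctu2, and Pkd1 shares 693 of its 17415 exon bases with Tsc2, both of them genes on the opposite strand. How the counting used strand is not given in the sources used here, so counts of these 2 channel genes may include reads of the partner. Ctu2 was at 38.9 to 46.9 CPM and Tsc2 at 612 to 719 CPM in the 6 libraries.

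Trpv4 and Pkd2 were the 2 channel genes whose difference passed the test in edgeR's fit on 4 samples that compares PNX and sham within deposits, in opposite directions, and their promoters are shown so that both can be read side by side. Each window is the 250 bases before the start of the RefSeq gene on GRCm38.p6, written 5′ to 3′ on the strand of the gene, with every GC box (GGGCGG on either strand) in capitals. The Trpv4 window is chr5:114658422-114658671 on the minus strand and the Pkd2 window is chr5:104459207-104459456 on the plus strand.
Trpv4: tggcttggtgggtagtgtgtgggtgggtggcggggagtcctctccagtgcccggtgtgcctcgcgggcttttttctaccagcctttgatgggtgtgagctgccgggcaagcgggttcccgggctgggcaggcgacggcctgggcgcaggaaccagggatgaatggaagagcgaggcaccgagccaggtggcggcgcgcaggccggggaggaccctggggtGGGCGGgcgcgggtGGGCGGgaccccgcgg
Pkd2: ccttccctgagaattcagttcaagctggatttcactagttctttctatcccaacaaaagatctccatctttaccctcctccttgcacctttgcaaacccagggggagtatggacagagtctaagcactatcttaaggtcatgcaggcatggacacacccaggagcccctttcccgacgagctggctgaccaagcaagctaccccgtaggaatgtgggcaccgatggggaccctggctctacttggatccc
The Trpv4 window was 72% G and C, and the Pkd2 window was 52.8%, beside a median of 52.4% over the 32851 windows of the same length. The Trpv4 window held 2 GC boxes, and the Pkd2 window held none of them. Over all windows, 32.7% held at least 1 GC box. The motif CACCC, in which Krüppel-like factors are known to bind, was found 5 times in the Trpv4 window and 1 time in the Pkd2 window, on either strand, and in 52.0% of all windows. The letters CANNTG, the E-box of basic helix-loop-helix factors, were found 1 time in the Trpv4 window, 0 times in the Pkd2 window and in 66.2% of all windows. These matches describe the letters in the windows and are not evidence of binding. A CACCC match and a GC box match may share a base, and each was counted.

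Among the 7 genes, Trpv4 and Piezo2 were higher and Pkd2 and Pkd1 were lower after PNX within both deposits. Trpv2 had a ratio of PNX to sham of 1.15 in the earlier deposit and 1.00 in the later one. The share of all genes with the same direction in both deposits is not given here. Trpv4 and Pkd2 passed edgeR's test on the 4 samples with the deposit as a block. Other fits within deposits called other numbers of the 7 genes. With the block, DESeq2 on the same 4 samples called Trpv4 alone of the 7, and 2501 genes in all. On 6 libraries with the block, which counts near-duplicates as separate samples, edgeR called 8395 of 16263 genes. It called Piezo2 (adjusted p = 0.0229) and Pkd1 (adjusted p = 0.0109) as well as Trpv4 and Pkd2. In edgeR's quasi-likelihood test on the 4 samples without a block, 0 of the 7 channel genes passed an adjusted p under 0.05, with Benjamini-Hochberg adjustment over all genes tested. The same was true of all 16598 genes, of which 0% passed. The lowest adjusted p was 0.365 among the channel genes and 0.0720 among all genes. At an unadjusted p under 0.05, 1 channel gene passed, which was Trpv4, beside 12.5% of all genes. Under the thresholds that the study used, an absolute log2 fold change above 1 at an adjusted p under 0.01, this fit also called 0% of all genes. On the same 4 samples DESeq2 called 893 genes at an adjusted p under 0.05 and limma-voom called 0 (2174 at an unadjusted p under 0.05), and neither called a channel gene.

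Samples of the same deposit deviated together, so that a fit with the deposit as a term (the replicate block) compares PNX with sham within deposits. With the block, 2 of the 7 channel genes passed an adjusted p under 0.05 in edgeR's test. Trpv4 rose, as did 11.5% of all genes tested, and Pkd2 fell, as did 10.1% of all genes tested. Under the stricter thresholds of the study 0 of the 7 channel genes and 5.12% of all genes passed with the block. This fit has 1 residual degree of freedom, so the error of each gene leans on the spread shared across genes. With the 6 libraries as separate samples and no block, edgeR called 0 channel genes and 13.2% of all genes at an adjusted p under 0.05, and DESeq2, the tool of the study, called 1 channel gene, Trpv4, and 20.3% of all genes. These latter fits count replicates 1 and 2 as independent. The median log2 fold change of the 7 channel genes was 0.20 without and 0.16 with the block, beside -0.01 for all genes in both fits. Both channel medians are the values of Trpc6, which moved in opposite directions in the 2 deposits. Within the earlier deposit the median log2 ratio of the 7 was 0.12, beside -0.02 for all genes. Within the later deposit it was 0.0034, beside -5.22e-04 for all genes. All 3 PNX libraries lay above all 3 sham libraries in 2 channel genes, Piezo2 and Trpv4, beside 18.6% of all genes, and below them in 0 channel genes, beside 18.0% of all genes.

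**Figure D1:**
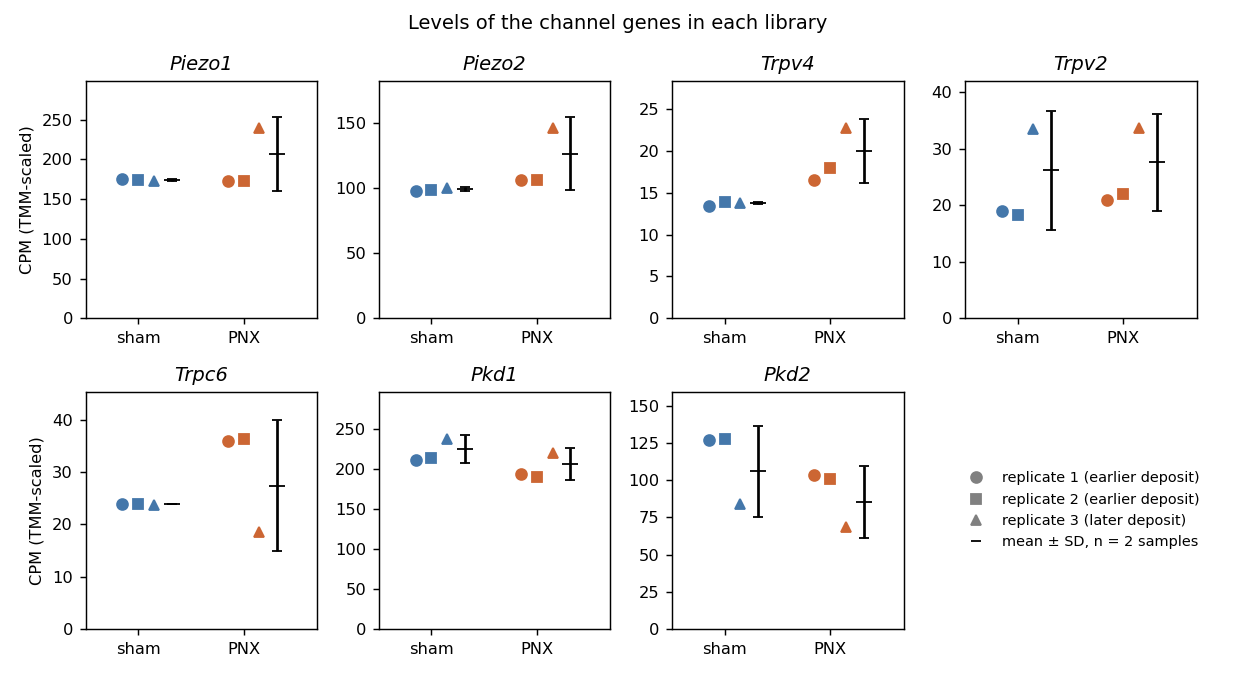
Level of each channel gene in CPM (y axis, from 0) in the sham and PNX libraries; circles and squares are replicates 1 and 2 (earlier deposit), triangles are replicate 3 (later deposit), and black bars are the mean ± SD over n = 2 samples per group. The 3 sham libraries lay close together for Piezo1, Piezo2, Trpv4 and Trpc6, and PNX replicate 3 was at 239 CPM for Piezo1 and 18.5 CPM for Trpc6, apart from the other PNX libraries.

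Piezo1 was nearly the same in sham and in the PNX libraries of the earlier deposit, and higher in the later PNX library. Its level was 175, 174 and 173 CPM in sham replicates 1, 2 and 3, and 173, 172 and 239 CPM in PNX replicates 1, 2 and 3. PNX replicate 3 stood above the other 5 libraries, which lay between 172 and 175 CPM, and the groups overlapped. The mean was 174 CPM ± 1.47 in sham and 206 CPM ± 46.8 in PNX (SD, n = 2). The log2 fold change was 0.25 (SE 0.20, edgeR adjusted p = 0.707) without the block and 0.23 (SE 0.12, adjusted p = 0.239) with it. Within the earlier deposit the ratio of PNX to sham was 0.990, with an exact 95% interval of 0.973 to 1.01, and within the later deposit it was 1.38 (1.34 to 1.43). These intervals, and those that follow, come from the counts of 2 libraries or summed libraries and cover counting error only.

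Piezo2, the channel of touch receptors and of airway-innervating sensory neurons, was also present in these lung isolates and was higher in every PNX library than in any sham library. It measured 97.4, 98.7 and 100.3 CPM in the sham replicates and 106, 107 and 146 CPM in the PNX replicates. The groups did not overlap, and the later PNX library was again the highest. The mean was 99.4 CPM ± 1.56 in sham and 126 CPM ± 27.9 in PNX (SD, n = 2). The fitted log2 change was 0.35 (SE 0.19, edgeR adjusted p = 0.568) without and 0.33 (SE 0.11, adjusted p = 0.0783) with the block, neither of which passed the threshold. The ratio of PNX to sham was 1.08 (1.06 to 1.11) in the earlier deposit and 1.45 (1.39 to 1.52) in the later one.

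Trpv4 had the highest fitted fold change of the 7 genes with all libraries in the fit, but not without PNX replicate 3, where Trpc6 was higher (a log2 fold change of 0.60 against 0.33), nor without sham replicate 3, where Trpv2 was (0.562 against 0.553). Its level was 13.5, 13.9 and 13.8 CPM in the sham replicates and 16.6, 18.0 and 22.7 CPM in the PNX replicates, from counts of 471 to 1243 per library. All PNX libraries lay above all sham libraries, and the spread among the sham libraries was small beside the difference. The mean was 13.8 CPM ± 0.103 in sham and 20.03 CPM ± 3.87 in PNX (SD, n = 2). The log2 fold change was 0.54 (SE 0.19, unadjusted p = 0.0404, edgeR adjusted p = 0.365) without the block and 0.51 (SE 0.12, adjusted p = 0.0236) with it. The blocked change, a 1.43-fold rise, was larger in absolute size than that of 77.8% of genes tested. The ratio of PNX to sham was 1.26 (1.19 to 1.34) in the earlier deposit and 1.64 (1.46 to 1.85) in the later one. With the 6 libraries as separate samples the log2 fold change was 0.48 (edgeR adjusted p = 0.0551) and 0.47 in DESeq2 (adjusted p = 0.0120). The DESeq2 call was lost without sham replicate 1 (adjusted p = 0.134), without sham replicate 2 (adjusted p = 0.105) and without PNX replicate 2 (adjusted p = 0.0644), and was kept without PNX replicate 1 (adjusted p = 0.00857). Leaving out replicate 3 of a group would leave near-duplicates alone in that group, so no p is given for it. PNX replicate 3, the highest library for Trpv4, Piezo2 and Piezo1, was also the highest for 4 of the 7 fibroblast genes (Col1a1, Col1a2, Dcn and Lum). It was the lowest for the other 3 (Pdgfra, Tcf21 and Npnt). All 4 mesothelial and all 5 proliferation genes were highest in it, and the part of any of these in the channel values was not tested.

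**Figure D2:**
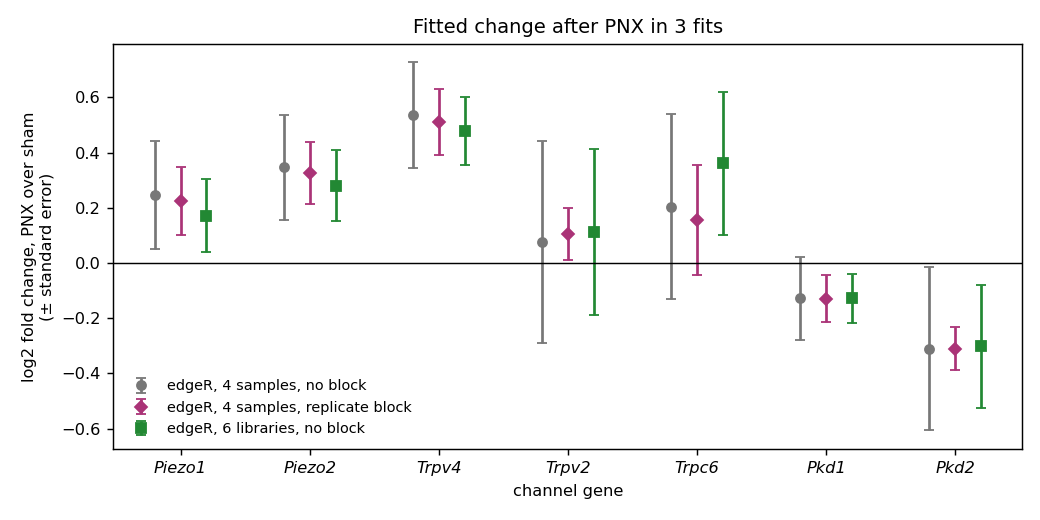
Log2 fold change of each channel gene, PNX over sham (y axis), in edgeR's fit on 4 samples without the block (circles), with the replicate block (diamonds) and on 6 libraries without the block (squares); bars are ± 1 standard error. With all libraries included, Trpv4 had the highest estimate in these 3 fits (0.48 to 0.54), and the standard error of Pkd2 went from 0.30 to 0.08 with the block.

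Trpv2, which is abundant in macrophages as well as in other cells, differed between deposits more than between sham and PNX. Its level was 19.0, 18.3 and 33.5 CPM in the sham replicates and 20.96, 21.9 and 33.5 CPM in the PNX replicates. Replicate 3 was the highest library of both groups, and the groups overlapped. The mean was 26.1 CPM ± 10.5 in sham and 27.5 CPM ± 8.58 in PNX (SD, n = 2). The fitted log2 change was 0.08 (SE 0.37, edgeR adjusted p = 0.967) without and 0.10 (SE 0.09, adjusted p = 0.477) with the block. The later deposit was 1.79 times the earlier one in sham and 1.56 times in PNX. The ratio of PNX to sham was 1.15 (1.09 to 1.21) in the earlier deposit and 1.00 (0.920 to 1.09) in the later one. The summed level of 8 macrophage genes was likewise highest in replicate 3 of each group, at 2471, 2460 and 4488 CPM in the sham replicates and 3057, 3051 and 4229 CPM in the PNX replicates. Most of this sum was Lyz2, at 2005, 1997 and 3511 CPM in the sham replicates and 2267, 2258 and 3074 CPM in the PNX replicates. Marco, unlike the other macrophage genes, was lower in PNX replicate 3 (63.7 CPM) than in PNX replicates 1 and 2 (144 and 148 CPM). In 3 of these 8 genes all PNX libraries lay above all sham libraries, beside 18.6% of all genes tested. Of the 8, 0 were at or under 3 counts in every library. The part of macrophage RNA in the values of Trpv2 was not tested.

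Trpc6, a channel opened by diacylglycerol and well known in smooth muscle, where it takes part in the constriction of lung vessels, moved in opposite directions in the 2 deposits. It was the only channel gene with more than 1 transcript, and its 3 transcripts may share reads, so the summed count can count a read more than 1 time. The summed level was 23.8, 23.8 and 23.7 CPM in the sham replicates and 35.9, 36.2 and 18.5 CPM in the PNX replicates. The sham libraries were nearly equal, PNX replicates 1 and 2 lay above them, and PNX replicate 3 lay below them. The mean was 23.8 CPM ± 0.0666 in sham and 27.4 CPM ± 12.5 in PNX (SD, n = 2). The log2 fold change was 0.20 (SE 0.34, edgeR adjusted p = 0.883) without and 0.16 (SE 0.20, adjusted p = 0.628) with the block. From the transcript with the highest count, the ratio of PNX to sham was 1.50 (1.40 to 1.60) in the earlier deposit and 0.757 (0.638 to 0.897) in the later one. Scaled by depth and length, the transcript with the highest count had 7.96, 8.00 and 7.90 TPM in the sham replicates and 11.9, 11.9 and 5.97 TPM in the PNX replicates, and the least abundant had 2.58, 2.59 and 2.78 against 4.06, 4.18 and 2.48 TPM. Each of the 3 transcripts was higher in PNX replicates 1 and 2, and lower in PNX replicate 3, than in any sham library. DESeq2 on the 6 libraries gave a log2 fold change of 0.35 (adjusted p = 0.431), and 0.62 without PNX replicate 3, which leaves near-duplicates as the PNX group and so gives no test.

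The summed level of 8 smooth muscle and pericyte genes was, like Trpc6, lowest in PNX replicate 3. It was 457, 460 and 585 CPM in the sham replicates and 576, 574 and 419 CPM in the PNX replicates, so that PNX replicates 1 and 2 lay above sham replicates 1 and 2. The sum was highest in sham replicate 3, in which Trpc6 was as in the other sham libraries. The genes differed among themselves. PNX replicate 3 was the lowest library for 6 of the 8, but not for the pericyte genes Pdgfrb and Cspg4. PNX replicate 1 or 2 was the highest for 5 of them, as for Trpc6 (Acta2, Tagln, Cnn1, Des and Cspg4), and sham replicate 3 for the other 3 (Myh11, Pdgfrb and Notch3). In 0 of the 8 genes were the groups free of overlap, 0 of the 8 passed the test in any direction with the block, and 0 of the 8 were at or under 3 counts in every library. Over all genes tested, 18.6% lay higher and 18.0% lower in all PNX libraries, and 11.5% rose and 10.1% fell with the block. The part of smooth muscle RNA in the values of Trpc6 was not tested.

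**Figure D3:**
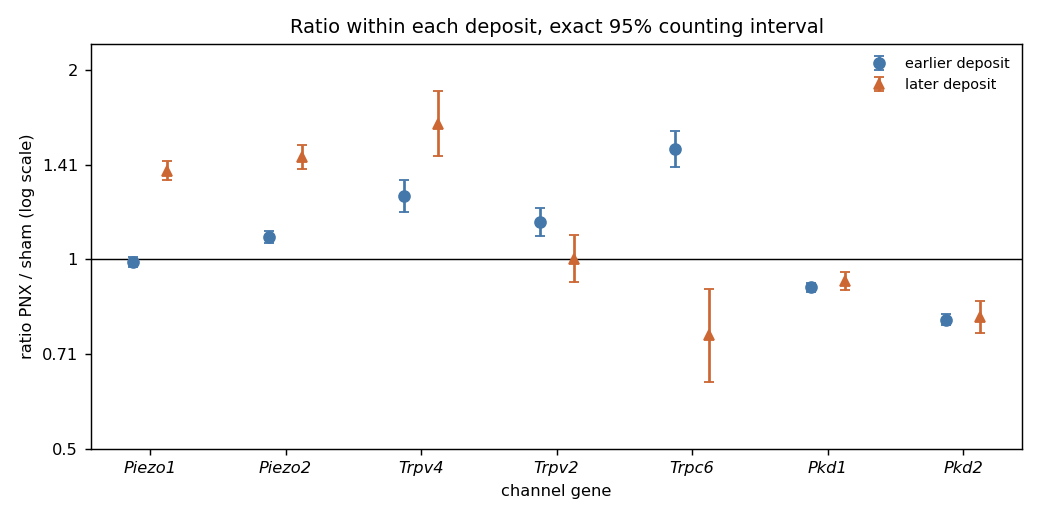
Ratio of PNX to sham (y axis, log scale) within the earlier deposit (circles, replicates 1 and 2 summed) and the later deposit (triangles, replicate 3); bars are exact 95% intervals for counting error only, and Trpc6 is given from its transcript with the highest count. Trpv4 lay above 1 and Pkd1 and Pkd2 below 1 in both deposits, whereas Trpc6 was at 1.50 and 0.757.

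Of the polycystins, Pkd2 fell with the block and Pkd1 did not pass the test. The sham replicates had 127, 128 and 84.3 CPM of Pkd2 and the PNX replicates had 103, 101 and 68.3 CPM. Within each deposit the PNX libraries were lower, and since the later deposit was lower in both groups, at 0.662 times the earlier in sham and 0.668 times in PNX, the groups overlapped. The mean was 106 CPM ± 30.6 in sham and 85.5 CPM ± 24.1 in PNX (SD, n = 2). The fitted log2 change was -0.31 (SE 0.30, edgeR adjusted p = 0.762) without the block and -0.31 (SE 0.08, adjusted p = 0.0307) with it. The ratio of PNX to sham was 0.802 (0.785 to 0.820) in the earlier and 0.810 (0.765 to 0.858) in the later deposit, which are within the intervals of each other. DESeq2 on the 4 samples with the block gave the same log2 fold change of -0.31 with an adjusted p of 0.0862, which did not pass, and kept Trpv4 (0.52, adjusted p = 0.0344).

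Pkd1, whose product is the receptor-like partner of polycystin-2, was at 211, 214 and 237 CPM in the sham replicates and at 194, 190 and 219.5 CPM in the PNX replicates. The PNX library was lower in both deposits, but the later PNX library lay above 2 sham libraries. The mean was 225 CPM ± 17.5 in sham and 206 CPM ± 19.5 in PNX (SD, n = 2). The log2 fold change was -0.13 (SE 0.15, edgeR adjusted p = 0.812) without and -0.13 (SE 0.08, adjusted p = 0.322) with the block. The ratio of PNX to sham was 0.903 (0.889 to 0.918) in the earlier and 0.925 (0.895 to 0.956) in the later deposit. Tsc2, which shares exon bases with Pkd1, had a log2 fold change of -0.14 in both fits, with an edgeR adjusted p of 0.379 with the block.

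Levels of different genes were compared only per length, as the deposited TPM, which scales counts by transcript length and library. In sham the mean TPM was 53.1 ± 0.215 for Piezo1, 51.0 ± 14.5 for Pkd2, 39.9 ± 3.26 for Pkd1, 23.8 ± 9.65 for Trpv2, 23.2 ± 0.458 for Piezo2 and 10.7 ± 0.119 for Trpv4 (SD, n = 2). Trpc6 was at 19.0 ± 0.0234 TPM when its transcripts were summed and at 7.94 ± 0.0515 TPM from its transcript with the highest count, so its place relative to Trpv4 depends on that choice. Pkd2 lay above Piezo1 in the earlier sham sample (61.2 against 53.2 TPM) and below it in the later one (40.7 against 52.9 TPM). Neither Piezo1 nor Pkd1 differed from Pkd2 beyond the spread of Pkd2. Trpv2 and Piezo2 also changed places, with 17.0 against 22.9 TPM in the earlier and 30.6 against 23.6 TPM in the later sham sample. Piezo1 lay above Pkd1 in both sham samples (53.2 against 37.6 and 52.9 against 42.2 TPM) and in both PNX samples. After PNX the order of the means was Piezo1 (62.8 ± 14.6), Pkd2 (40.9 ± 11.3), Pkd1 (36.4 ± 3.67), Piezo2 (29.5 ± 6.68), Trpv2 (25.1 ± 7.93) and Trpv4 (15.5 ± 3.07), and Trpc6 was at 21.7 ± 9.77 TPM summed and 8.94 ± 4.19 TPM from 1 transcript.

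**Figure D4:**
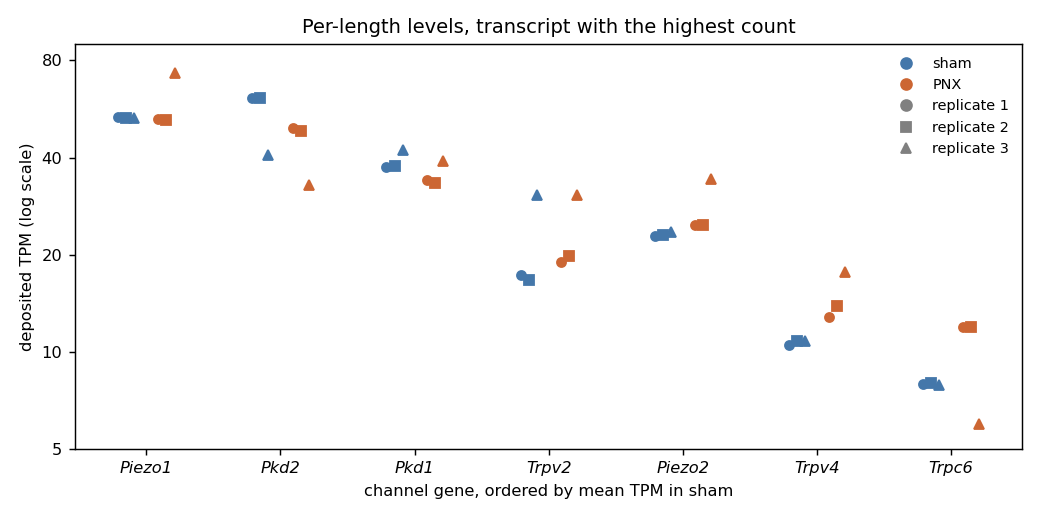
Deposited TPM (y axis, log scale) of each channel gene in the 6 libraries, from the transcript with the highest count; colour marks the group and shape the replicate, and genes are ordered by their mean in sham. Piezo1, Pkd2 and Pkd1 are the 3 highest genes in sham by mean TPM, and Trpv4 and Trpc6 the 2 lowest.

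The pattern of each channel gene over the 6 libraries was compared with that of all other genes tested by the root mean square (RMS) difference of centred log2 CPM. The 6 points include near-duplicate libraries, so these likenesses are descriptions. The closest genes were Il18bp for Piezo1 (RMS difference 0.0215), Nup155 for Piezo2 (0.0396), Mphosph9 for Trpv4 (0.0194), Mcemp1 for Trpv2 (0.0184), Heyl for Trpc6 (0.04997), Ctage5 for Pkd1 (0.0140) and Tspan13 for Pkd2 (0.0188). The second closest were Rab10os (0.0300), Smim1 (0.0418), Mast2 (0.0341), Cyp4f16 (0.0252), Pi15 (0.0587), Gpatch2 (0.0198) and Grap (0.0245), in the same order. Heyl, a transcription factor gene downstream of Notch, was at 19.6, 20.8 and 19.6 CPM in the sham replicates and 31.1, 31.3 and 14.7 CPM in the PNX replicates, and so was also lowest in the later PNX library. Mphosph9 had 32.8, 34.2 and 33.4 CPM in the sham replicates and 40.7, 43.4 and 57.0 CPM in the PNX replicates, with no overlap between the groups, as for Trpv4. These shared features follow from choosing Heyl and Mphosph9 as the closest genes over the same libraries.

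Of 23 other channels that are mechanically gated or modulated, 18 were tested. In edgeR's test 0 of the 18 passed without the block, and 2 rose and 5 fell with it. Over all genes tested, 11.5% rose and 10.1% fell with the block. The median log2 fold change was -0.07 with the block, beside -0.01 for all genes. Panx1, a channel that releases ATP, was at 4.48, 4.32 and 4.61 CPM in the sham replicates and 7.13, 7.29 and 8.12 CPM in the PNX replicates, and its log2 fold change was 0.76 with the block (edgeR adjusted p = 0.0101). Asic3, an acid-sensing channel, also rose with the block, by 1.44 on the log2 scale (adjusted p = 0.0352), from at most 1.05 CPM in any library. Kcnk2, a potassium channel that opens with membrane tension, was at 21.3, 21.6 and 24.0 CPM in the sham replicates and 10.8, 12.7 and 7.74 CPM in the PNX replicates. Its log2 fold change was -1.21 with the block (edgeR adjusted p = 0.00347). Trpm4, Lrrc8a, Scnn1a and Scnn1b fell as well, with log2 fold changes of -0.37, -0.40, -0.91 and -1.05. Scnn1a and Scnn1b encode subunits of the epithelial sodium channel. The summed alveolar epithelial genes were 6580 to 8993 CPM in sham and 2244 to 6066 CPM in PNX. Of the 8, 4 were lower in all PNX libraries, beside 18.0% of all genes tested. The part of epithelial RNA in the values of Scnn1a and Scnn1b was not tested. Trpc1, a partner of other TRPC channels, was lower in all PNX libraries, at -0.48 with an adjusted p of 0.0875 with the block.

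**Figure D5:**
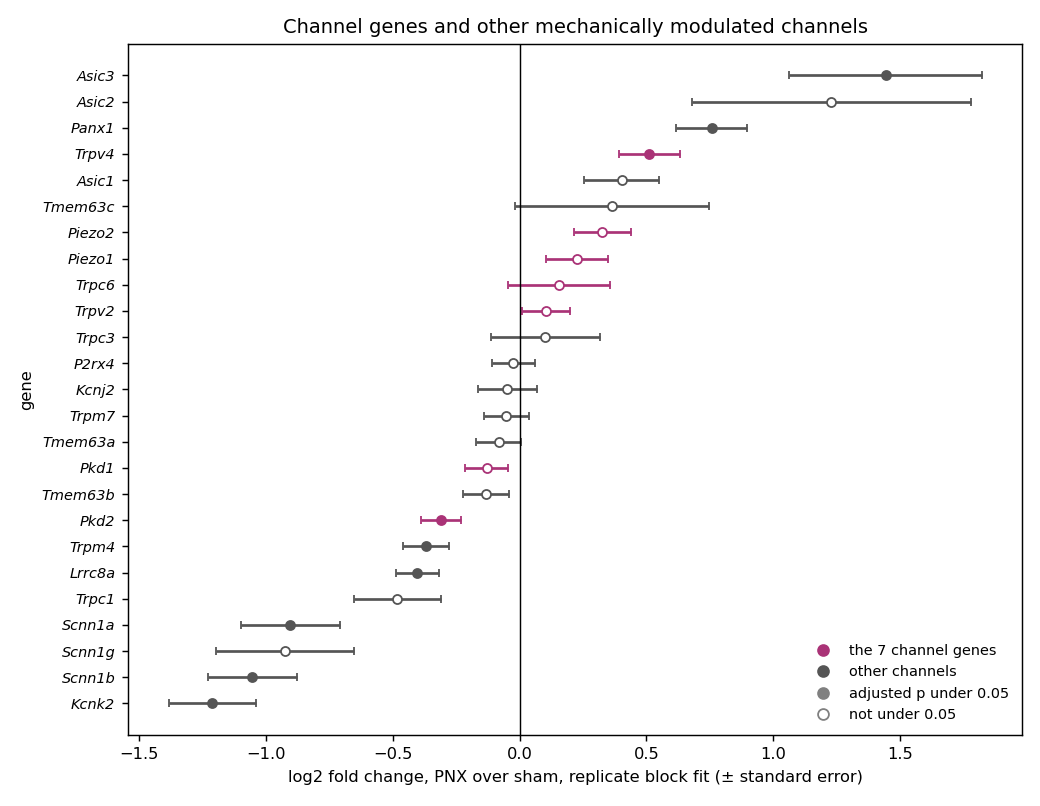
Log2 fold change, PNX over sham, with the replicate block (x axis; bars are ± 1 standard error) of the 7 channel genes and 18 other mechanically gated or modulated channels; filled points had an adjusted p under 0.05. Trpv4 and Pkd2 are the filled points among the 7 genes, and Kcnk2 (-1.21) and Asic3 (1.44) are the ends of the range.

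Of 22 other genes of the TRP and polycystin families in the tables, 16 were tested, and with the block 2 rose and 1 fell, while 0 passed without it. For this list and the PIEZO partners below, the shares over all genes tested were 11.5% higher and 10.1% lower. Mcoln2, a channel of endosomes and lysosomes, rose by 0.85 on the log2 scale (edgeR adjusted p = 0.0167), and Trpm6, a magnesium channel, was at -0.73 (adjusted p = 0.00729). Trpc4 rose by 1.88 (adjusted p = 0.0344) from low levels, at most 0.71 CPM in any library. Trpv1 was too low to be tested. Trpv6 and Pkdrej lay lower in all PNX libraries but did not pass (adjusted p = 0.253 and 0.189). Among 11 tested genes of PIEZO partners and the steps after calcium entry, 1 rose with the block and 0 fell. This was Nos3, which encodes the endothelial nitric oxide synthase, at 52.5, 53.6 and 35.0 CPM in the sham replicates and 62.4, 64.4 and 63.5 CPM in the PNX replicates (log2 fold change 0.55, edgeR adjusted p = 0.0314 with the block, 0.460 without). Mdfic, an auxiliary subunit of PIEZO channels, was at -0.02 (adjusted p = 0.921). Atp2a2, the calcium pump SERCA2, lay higher in all PNX libraries (0.17, adjusted p = 0.291), and Gnaq, a G protein subunit, lower (-0.29, adjusted p = 0.0843).

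Of 12 junctional and surface flow sensors, 2 rose and 1 fell with the block, and 0 passed without it. Here and for the flow-responsive genes below, 11.5% of all genes tested rose and 10.1% fell with the block. Sdc4, a cell surface proteoglycan, rose by 0.67 (edgeR adjusted p = 0.00258), and Plxnd1, a plexin that ECs use to sense flow, by 0.30 (adjusted p = 0.0450), while S1pr1, a receptor for sphingosine 1-phosphate, was at -0.58 (adjusted p = 0.0124). Itgb1, an integrin subunit, was higher in all PNX libraries without passing (0.33, adjusted p = 0.0605). Pecam1, the gene of CD31, was at 0.02 (adjusted p = 0.931), and Kdr, the gene of VEGFR2, was lower in all PNX libraries without passing with the block (-0.33, adjusted p = 0.0694). On 6 libraries without the block, which counts near-duplicates as separate samples, Kdr passed in edgeR (adjusted p = 0.0239) and in DESeq2 (adjusted p = 1.43e-06). Of 10 flow-responsive genes, 1 rose and 3 fell with the block. Klf2, a transcription factor that laminar flow induces, was at 363, 374 and 275 CPM in the sham replicates and 225, 228 and 225 CPM in the PNX replicates (log2 fold change -0.49, edgeR adjusted p = 0.0245 with the block). Edn1, the gene of endothelin-1, fell by 1.50 on the log2 scale (adjusted p = 2.45e-04), and Cyr61 by 0.43 (adjusted p = 0.0424), and Hmox1, heme oxygenase 1, rose by 1.26 (adjusted p = 8.74e-04). Nqo1, an antioxidant enzyme gene, was higher in all PNX libraries without passing (0.48, adjusted p = 0.0935). Hmox1 is also abundant in macrophages, whose summed markers are given above with Trpv2, and their part in its value was not tested.

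Of 16 genes of store-operated calcium entry and calcium handling, 1 rose and 3 fell with the block, and 0 passed without it. Beside this list and the polycystin partners below, 11.5% of all genes tested rose and 10.1% fell. Rcan1, a target and inhibitor of calcineurin, was at 92.3, 93.2 and 102 CPM in the sham replicates and 139, 139 and 141 CPM in the PNX replicates (log2 fold change 0.53, edgeR adjusted p = 0.00467 with the block). Atp2a3, the calcium pump SERCA3, was at -0.56 (adjusted p = 0.0146), and the calcium release channels Itpr1 and Itpr2 were at -0.29 (adjusted p = 0.0440) and -0.34 (adjusted p = 0.0269). Orai1, the pore of store-operated entry, was at 0.06 (adjusted p = 0.725). Of 10 tested polycystin and primary cilium partners, 2 rose and 0 fell with the block, and 0 passed without it. Bicc1, an RNA-binding protein gene linked to kidney cysts, rose by 0.85 (adjusted p = 0.00449), and Dnajb11, a chaperone needed for polycystin-1 maturation, by 0.29 (adjusted p = 0.0457). Pkhd1 was too low to be tested. Ganab was higher in all PNX libraries (0.16, adjusted p = 0.288) and Ift88 and Inpp5e were lower in all of them (-0.21, adjusted p = 0.292, and -0.09, adjusted p = 0.456), without passing.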

How the data were processed

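The authors prepared stranded mRNA libraries and deposited, for each library, a count per RefSeq transcript, with FPKM and TPM values beside it. The submitters' processing notes name the build mm10 and STAR. Reads were counted on the Basepair platform, per the study's methods, with counting options not given in the sources used here. Deposited FPKM values were not used, and the deposited TPM values were described, not tested. The 33068 transcript counts were summed to 24063 symbols.

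Replicates 1 and 2 of each group were summed because their counts agreed almost within sampling noise, over 11747 genes in sham and 11758 in PNX with at least 20 counts in the pair. The 4 samples were fitted with edgeR 4.0.16 (R 4.3.3) by its quasi-likelihood test after TMM scaling and filterByExpr, with Benjamini-Hochberg adjustment. DESeq2 1.42.0 and limma-voom 3.58.1, other scalings and filters, the replicate block, 6 libraries and leaving out each library were alternatives. Fits combining the block with other settings, and DESeq2 without 1 library, were added after the values were seen. The labels pair the groups by deposit, and across 14156 genes with a mean of at least 1 CPM, which are not independent, the later-minus-earlier difference in sham went with that in PNX (Spearman's rho = 0.752, Pearson's r = 0.753). An exact permutation test of 2 against 2 samples cannot go below p = 0.333 (two-sided). The labels do not say whether pools came from separate operations, so p-values without the block measure the spread between these samples. With the block they measure the spread left after the deposit term. That spread has 1 residual degree of freedom on 4 samples, and edgeR's estimate of it is moderated across genes. On 6 libraries the spread includes that between near-duplicates. The standard error of an edgeR fold change is its size over the square root of F. Intervals are exact binomial (Clopper-Pearson) at 95%. The fits were tested on simulated data.

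The members and lists were chosen with earlier results of these data known. Named were the 7 genes and, from each list, the first gene, and the 2 highest and 2 lowest fold changes among genes whose groups did not overlap, with the 2 most alike genes of each member; further genes that passed the test were named after their values were seen. Ccn1 is listed as Cyr61, and Pkd1l1 was not analysed here. Positions and overlaps are from GENCODE release 21 for mouse. Promoter windows from RefSeq were examined for 6 of the 7 genes and begin 250 bases before the start.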

Additional observations from a re-analysis of the deposited data

Results flagged for a closer look

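The ratio of PNX to sham of 2 channel genes went in opposite directions in the 2 deposits. Piezo1 had a ratio of 0.990 in the earlier deposit and 1.38 in the later one, and Trpc6, from its transcript with the highest count, had a ratio of 1.50 in the earlier and 0.757 in the later one. The exact 95% interval of Piezo1 in the earlier deposit, 0.973 to 1.01, includes no difference. The difference between the deposits was not tested, since each deposit gives 1 sample per group.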

How the results depend on the processing

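Without a block the fit called 0 genes by either rule and 2076 at an unadjusted p under 0.05. At an adjusted p under 0.01 with a log2 fold change beyond 1 in size, 587 genes were called by DESeq2 on 4 samples, 849 with the replicate block, 409 with 6 libraries, 1104 with 6 libraries and the block and 927 by DESeq2 on 6 libraries, and 0 to 2 when 1 library was left out, with 2 without PNX replicate 3. At an adjusted p under 0.05 the numbers were 893, 3584, 2148, 8395 and 3481 in the same order, 255 with no filter on low counts, and 0 to 204 when 1 library was left out, with 204 without sham replicate 3 and 109 without PNX replicate 3. Counting near-duplicates as separate samples narrows the error by construction.

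The number of channel genes called was 2 with the replicate block, 4 with 6 libraries and the block, 1 in DESeq2 on 6 libraries, and 0 without the block whichever library was left out. With the replicate block it was 2 whichever library of the earlier deposit was left out and 1 in DESeq2, which no longer called Pkd2 (-0.31). The blocked fit called 485 to 863 genes by the stricter rule when 1 library was left out, with 485 without PNX replicate 1, and other scalings of it gave 52.9% to 56.7% of calls as higher, beside 53.3%. Calls gained with the replicate block were Trpv4 (0.51) and Pkd2 (-0.31). With 6 libraries and the block they were Trpv4 (0.46), Piezo2 (0.26), Pkd1 (-0.13) and Pkd2 (-0.30), and in DESeq2 on 6 libraries Trpv4 (0.47). The cause of the differences between tools was not tested.

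The log2 fold change of Piezo1 ran from -0.00426 to 0.25 when 1 library was left out and that of Trpv2 from -0.28 to 0.56, and both changed sign without PNX replicate 3. It was 0.10 for Piezo2, 0.33 for Trpv4, 0.60 for Trpc6 and -0.05 for Pkd2 without PNX replicate 3, and -0.04 for Pkd1 and -0.56 for Pkd2 without sham replicate 3; their ranges were 0.10 to 0.37, 0.33 to 0.56, 0.20 to 0.60, -0.56 to -0.05 (Pkd2) and -0.23 to -0.04 (Pkd1). Piezo1 was at -0.015 within the earlier deposit, and Trpc6 at -0.40 within the later one. Trpc6 was at 7.94 TPM in sham and 8.94 TPM in PNX from 1 transcript, in place of the sum. Of the other comparisons with an alternative setting, 265 kept their direction and their side of the threshold or moved by less than the spread. Leaving out replicate 3 of a group leaves that group 1 summed sample, which is then assumed to vary like the other group.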
